A study of Mus musculus with 16 samples.

Results

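The genes described here build and hold the extracellular matrix: collagens, laminins, nidogens, matrix glycoproteins, the enzymes that fold and cross-link collagen, and the integrins and other receptors through which cells grip the matrix. They were given as a list of 49 gene symbols, chosen with earlier results of these data known but with no threshold on measured values. All 49 were found among the 20622 genes of the total RNA tables. The RPF tables held 46 of the 49 among 15235 genes. The members were grouped by role into basement membrane (13), interstitial collagens (5), matrix glycoproteins (8), collagen processing (8), integrins (11), and other adhesion receptors and partners (4).

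The cells were KM cells, grown from lung tumours of 1 male mouse carrying Rosa26 LSL-MYC/LSL-MYC, in which a Cre driven by the SPC promoter had switched on extra MYC in alveolar epithelium. KM_4A2cr cells had been transduced with a lentiCRISPR guide against *Eif4a2*, which encodes an RNA helicase of the eIF4A family, and were a pool of 4 clones without eIF4A2 protein. KM_NTC cells carried a non-targeting guide and were the control. Both lines share the tumour and its alleles, Cas9 and puromycin selection, and neither was treated. In each line, ribosome-protected fragments (RPFs, the stretches of mRNA that ribosomes cover) and cytoplasmic total RNA were sequenced from the same lysate in 4 replicates, each an experiment on a different day, giving 16 libraries. The lines came from 1 animal and KM_4A2cr was 1 pool of clones, so p-values measure the spread between experiments, not between mice or clones.

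Basement membranes are thin sheets under epithelia, made of a laminin network and a collagen IV network, with nidogen binding laminin and collagen IV. A laminin is a trimer of an α, a β and a γ chain, and laminins with the α3 and β3 chains, encoded by *Lama3* and *Lamb3*, anchor epithelial cells through the integrins α3β1 and α6β4. Collagen chains are hydroxylated on proline and lysine and folded in the endoplasmic reticulum before secretion, and lysyl oxidases cross-link them outside the cell. In the lung, alveolar epithelium rests on a basement membrane shared with capillaries, while fibroblasts make most of the interstitial collagen.

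Promoter windows (250 bases before to 50 after a transcription start, RefSeq annotation of GRCm38.p6) were found for 38 of the 49 members, in 47 windows. Those of *Lamb3*, *Nid1*, *P4ha1* and *Itga5* are printed as examples of genes that passed the test described below (those of *Col18a1* and *Plod1*, which also passed, are not), and those of *Col4a1* and *Col4a2* since the genes lie head to head. The *Lamb3* window lies at chr1:193301744-193302043 (+), that of *Nid1* at chr13:13437352-13437651 (+), that of *P4ha1* at chr10:59323046-59323345 (+) and that of *Itga5* at chr15:103366742-103367041 (-). In these 4 windows capitals mark matches, on either strand, to the CCAAT box (CCAAT), the GC box (GGGCGG), the TATA box (TATAAA), the AP-1 site (TGANTCA) or the E-box (CACGTG), and no matches overlapped. *Lamb3* has a further window 249 bases downstream, which is not printed.
Lamb3: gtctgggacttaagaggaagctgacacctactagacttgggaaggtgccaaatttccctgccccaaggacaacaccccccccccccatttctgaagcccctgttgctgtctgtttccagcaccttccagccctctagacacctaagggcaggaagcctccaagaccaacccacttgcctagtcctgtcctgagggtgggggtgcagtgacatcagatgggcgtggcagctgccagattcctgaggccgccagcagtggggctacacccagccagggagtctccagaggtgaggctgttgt
Nid1: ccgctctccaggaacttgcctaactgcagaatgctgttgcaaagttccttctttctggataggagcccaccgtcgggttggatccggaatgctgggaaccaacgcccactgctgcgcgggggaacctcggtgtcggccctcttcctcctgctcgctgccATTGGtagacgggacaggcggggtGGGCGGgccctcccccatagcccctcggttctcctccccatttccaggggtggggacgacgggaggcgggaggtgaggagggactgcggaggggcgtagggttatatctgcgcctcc
P4ha1: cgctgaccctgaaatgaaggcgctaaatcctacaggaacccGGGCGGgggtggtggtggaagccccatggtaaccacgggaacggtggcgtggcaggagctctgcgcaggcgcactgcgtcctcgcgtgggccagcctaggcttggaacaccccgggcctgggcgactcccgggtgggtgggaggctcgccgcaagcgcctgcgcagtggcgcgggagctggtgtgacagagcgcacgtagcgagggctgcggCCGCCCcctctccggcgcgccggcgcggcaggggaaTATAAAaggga
Itga5: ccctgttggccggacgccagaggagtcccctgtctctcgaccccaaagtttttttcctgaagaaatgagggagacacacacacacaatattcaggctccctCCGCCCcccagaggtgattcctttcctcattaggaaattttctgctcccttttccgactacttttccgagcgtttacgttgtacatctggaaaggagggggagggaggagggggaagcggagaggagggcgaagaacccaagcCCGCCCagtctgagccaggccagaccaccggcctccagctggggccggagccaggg

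The *Lamb3* window held no match to the 5 motifs. *Nid1* held a CCAAT box and a GC box, *P4ha1* held a pair of GC boxes and a TATA box 40 bases after its start, and *Itga5* held a pair of GC boxes. A GC box stood in 31 of the 47 member windows and in 35.7% of all 32851 windows of the table, and a CCAAT box in 15 of 47 and in 37.4%. The AP-1 site was in 3 member windows (7.81% of all windows), the TATA box in 7 (13.6%) and the E-box in 2 (7.15%). A match describes letters in a window and not a site in use.

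*Col4a1* (chr8:11312777-11313076, -) and *Col4a2* (chr8:11312555-11312854, +) start 21 bases apart on opposite strands, so that 78 bases, in capitals, belong to both windows.
Col4a1: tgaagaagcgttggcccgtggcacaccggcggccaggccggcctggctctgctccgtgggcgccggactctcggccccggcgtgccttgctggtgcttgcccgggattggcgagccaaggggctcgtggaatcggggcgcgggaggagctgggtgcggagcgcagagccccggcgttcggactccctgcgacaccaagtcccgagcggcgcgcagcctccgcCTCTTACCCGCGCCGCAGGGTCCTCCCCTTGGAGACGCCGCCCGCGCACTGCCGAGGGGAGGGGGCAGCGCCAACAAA
Col4a2: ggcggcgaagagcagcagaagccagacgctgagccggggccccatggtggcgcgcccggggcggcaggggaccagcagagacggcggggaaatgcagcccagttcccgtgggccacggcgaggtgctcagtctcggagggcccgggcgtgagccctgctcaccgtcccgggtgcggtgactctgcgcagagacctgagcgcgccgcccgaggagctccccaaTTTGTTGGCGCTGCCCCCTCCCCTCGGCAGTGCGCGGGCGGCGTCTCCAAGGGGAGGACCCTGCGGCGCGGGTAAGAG

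Library totals were 4512403 to 9621848 counts for RPFs and 5350920 to 9312624 for total RNA, and were lowest in replicate 4 within each line and kind of library. The guide left *Eif4a2* RNA in place, which does not test for protein. *Eif4a2* total RNA was 220 to 524 CPM in KM_NTC and 183 to 467 in KM_4A2cr. It was lower in 4 of 4 pairs and not called (log2 fold change -0.18, adjusted p = 0.504 by edgeR). *Eif4a2* RPFs were 97.7, 122, 99.8 and 389 CPM in KM_NTC replicates 1 to 4 and 51.0, 88.4, 74.8 and 346 in KM_4A2cr, lower in 4 of 4 pairs (log2 fold change -0.49, with its standard error, SE, of 0.15, adjusted p = 0.0941 by edgeR). CPM is a count scaled by the library size after TMM normalisation. The 8 epithelial markers summed to between 9284 and 15059 CPM in RPFs. Of 12 fibroblast markers 3 were listed in RPFs, and none had a mean over 10 CPM in RPFs or total RNA. In RPFs *Pdgfra* was the highest of the 3, at 2.63 to 21.4 CPM, and *Col1a1* stayed at or below 0.685 CPM. *Sftpc* and *Sftpb*, surfactant genes among the 10 markers used for alveolar type II cells, had 0 counts in all 8 total RNA libraries. That allows up to 0.0563 CPM over these libraries. Of the 10 markers, 2 (*Abca3* and *Lpcat1*) had a mean over 10 CPM.

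Replicate 4 stood apart in both lines for the genes described here. Its CPM were the highest of the 4 replicates in both lines for 18 of 36 tested members in RPFs (50.0%, against 22.0% of all tested genes) and for 14 of 35 in total RNA (40.0% against 23.3%). In RPFs, 13 members changed in pair 4 in the direction opposite to pairs 1 to 3 (36.1%, against 25.4% of all genes). The macrophage and lysosome gene *Cd68* moved with it, at 74.0 to 126 CPM in replicates 1 to 3 and 695 or more in replicate 4, while *Ptprc*, which marks leukocytes, stayed at or below 2.33 CPM. Of the 8 leukocyte markers 6 were listed in RPFs, and *Cd68* and *Itgb2* alone had a mean over 10 CPM. *Itgb2* was highest in replicate 4 in KM_NTC only, at 137 CPM (others 38.0 to 68.6). In KM_4A2cr its replicate 4 had 34.2 CPM, within the others (28.9 to 45.2). The fibroblast marker *Pdgfra* had at most 10.9 CPM of RPFs in replicates 1 to 3 and at least 14.3 in replicate 4. *Col1a1* and *Acta2*, the other fibroblast markers listed, were highest in replicates 1 to 3 (0.685 and 2.95 CPM). The endothelial marker *Kdr* had at most 3.94 CPM in replicates 1 to 3 and at least 10.2 in replicate 4. The rest of the 5 endothelial markers listed stayed at or below 1.54 CPM. The part of other cells in the levels of replicate 4 was not tested. Where this replicate decided a call in RPFs, the value without it is given too, and in total RNA it is given for members not called in RPFs either way.

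Of the 49 members, 36 had enough reads to be tested in RPFs and 35 in total RNA. A member was called where the adjusted p was under 0.1 (edgeR quasi-likelihood test with replicate as a term, Benjamini-Hochberg adjustment over all tested genes). In RPFs, 6 members rose in KM_4A2cr and 2 fell, against 10.3% of all 10291 tested genes called, 6.60% up and 3.72% down. In total RNA, 7 members rose and 1 fell, against 6.13% of 10880 genes called, 4.35% up and 1.78% down. The members' median log2 fold change was 0.26 in RPFs and 0.25 in total RNA, where the medians of all tested genes were -0.01 and 0.01. Since the list was chosen with earlier results of these data known, these shares and medians describe it and do not test it. Within the 36 members the RPF log2 fold change ran from -1.31 (*Nid1*) to 1.27 (*Lama3*). The values just inside the threshold in RPFs were those of *Itgb4* (adjusted p = 0.0513) and *Thbs1* (0.0679), and those just outside were *Plod2* (0.101) and *Plod1* (0.111). Without replicate 4, 20 members rose and 3 fell in RPFs, against 33.4% of genes called, and 24 rose and 2 fell in total RNA, against 29.8%. Leaving out replicate 1 left 6 members called in RPFs and 6 in total RNA (2.27% and 1.91% of genes), leaving out replicate 2 left *Lama3* and *Nid1* in both (1.20% and 1.30%), and leaving out replicate 3 left none by edgeR in RPFs, where 10 had an unadjusted p under 0.05, and *Lama3* in total RNA (0.310% and 0.577%). No called member changed direction under any of these. With the replicate term dropped, no member and no gene at all was called by edgeR, and 2 members in RPFs and 5 in total RNA had an unadjusted p under 0.05.

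**Figure D1:**
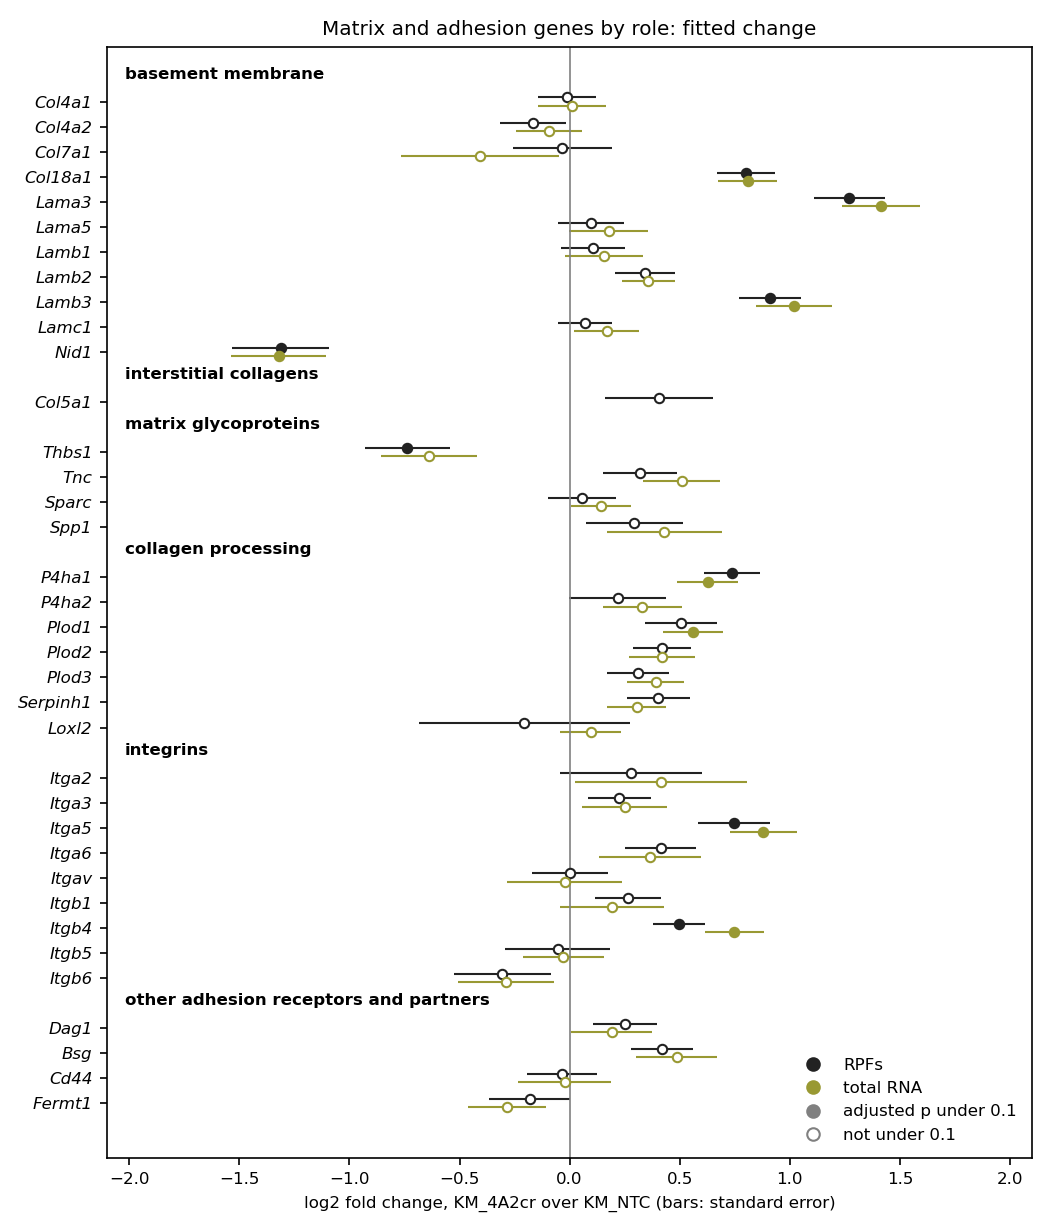
Fitted log2 fold change (KM_4A2cr over KM_NTC) on the horizontal axis, with its standard error, for the 36 members tested in RPFs (black) and total RNA (olive), grouped by role, with filled points for an adjusted p under 0.1. *Lama3*, *Lamb3* and *Col18a1* stand to the right and *Nid1* to the left in the basement membrane group. Most collagen-processing genes lie between 0.22 and 0.74 in RPFs.

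Among basement membrane genes, *Lama3*, *Lamb3* and *Col18a1* rose in both kinds of library and *Nid1* fell in both, while the collagen IV chains and the other laminin chains did not pass the test with all 4 replicates. Of 13 genes, 11 were tested, 3 rose and 1 fell in RPFs, with the same counts in total RNA. *Lama3* (ENSMUSG00000024421.17), the laminin α3 chain, had RPF levels of 345, 474, 563 and 2469 CPM in KM_NTC and 906, 1169, 1733 and 4198 CPM in KM_4A2cr. Replicate 4 was the highest in both lines, and the ranges of the lines overlapped through it, but KM_4A2cr was the higher of each pair. The log2 fold change was 1.27 (SE 0.16, adjusted p = 0.00594 by edgeR), or 2.41-fold. In total RNA *Lama3* was 231, 259, 323 and 1113 CPM against 641, 709, 1095 and 2182 CPM, a log2 fold change of 1.42 (SE 0.18, adjusted p = 0.00282 by edgeR). It was thus the largest rise among the members in both kinds of library.

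*Lamb3* (ENSMUSG00000026639.19), the β3 chain that pairs with α3, was covered by RPFs at 1100.4, 1289, 2279.8 and 3592 CPM in KM_NTC and 2218, 2543, 4889.6 and 5239 CPM in KM_4A2cr. Every KM_4A2cr library was above its partner, by log2 differences of 0.54 to 1.10, with the smallest in pair 4. The fitted value was 0.91 (SE 0.14, adjusted p = 0.0119 by edgeR) in RPFs and 1.02 (SE 0.17, adjusted p = 0.0127) in total RNA.

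*Col18a1* (ENSMUSG00000001435.16), a basement membrane collagen whose fragment is endostatin, had 748, 607, 1246 and 1747 CPM in KM_NTC RPFs and 1325, 1293, 2025 and 2636 CPM in KM_4A2cr. The pairs differed by 0.59 to 1.09 on the log2 scale, all upward, and the fit gave 0.80 (SE 0.13, adjusted p = 0.0153 by edgeR). Total RNA of *Col18a1* rose by nearly the same size, 0.81 (SE 0.14, adjusted p = 0.0121). *Nid1* (ENSMUSG00000005397.9), nidogen 1, which binds laminin and collagen IV, went the other way. Its RPFs were 77.8, 53.2, 70.9 and 95.7 CPM in KM_NTC and 46.7, 27.9, 23.4 and 22.1 CPM in KM_4A2cr, so that the lines did not overlap. *Nid1* fell by 1.31 on the log2 scale in RPFs (SE 0.22, adjusted p = 0.0158 by edgeR) and by 1.32 in total RNA (SE 0.21, adjusted p = 0.0111). Without replicate 4, where the pair differed most, the RPF fall was 1.07 (adjusted p = 0.000388 by edgeR). Without replicate 3 *Nid1* was called in neither kind of library.

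**Figure D2:**
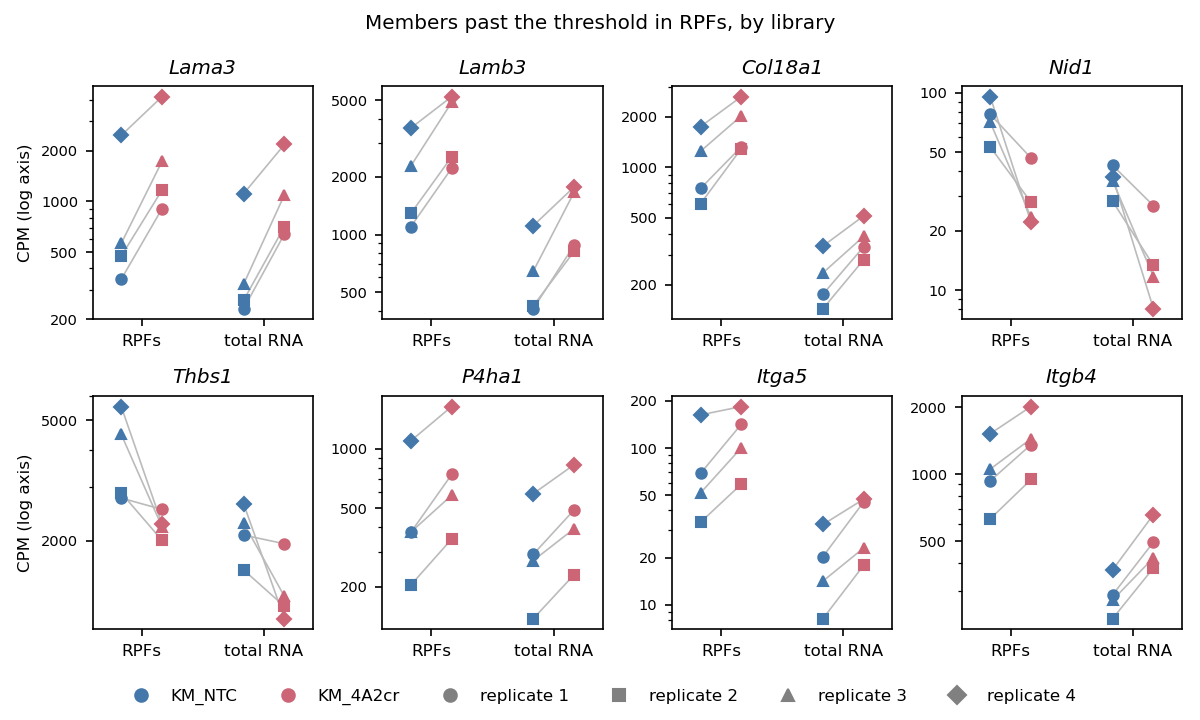
CPM on a log axis in each library for the 8 members called in RPFs, with RPFs at the left and total RNA at the right of each panel, KM_NTC in blue, KM_4A2cr in red, and a line joining the libraries of a replicate. All 4 lines slope the same way in every panel, and the replicate 4 diamonds of *Lama3* lie above the other replicates of their own line.

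Neither of the collagen IV chains among the members, *Col4a1* and *Col4a2*, was called. *Col4a1* RPFs were 911, 533, 995 and 1288 CPM in KM_NTC and 1045, 593, 882 and 1104 CPM in KM_4A2cr, up in pairs 1 and 2 and down in pairs 3 and 4 (log2 fold change -0.01, SE 0.13, adjusted p = 0.972 by edgeR). *Col4a2*, whose start shares its promoter window with that of *Col4a1*, had a log2 fold change of -0.17 (SE 0.15, adjusted p = 0.545). TPM, which counts transcripts per length, put *Col4a1* at 1.98 to 2.68 times *Col4a2* in all 8 total RNA libraries. Collagen IV trimers are commonly built of a pair of α1 chains and a single α2 chain.

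Of the other laminin chains, *Lamc1*, the γ1 chain shared by most laminins, had RPFs of 835, 679, 900.1 and 2147 CPM in KM_NTC and 966, 729, 964 and 1963 CPM in KM_4A2cr. Its log2 fold change was 0.07 (SE 0.12, adjusted p = 0.765 by edgeR), and replicate 4 was again the highest in both lines. *Lama5* (α5), *Lamb1* (β1) and *Lamb2* (β2) had RPF log2 fold changes of 0.10, 0.11 and 0.34, with adjusted p from 0.173 to 0.737. Without replicate 4 *Lamb2* was called in RPFs at 0.44 (adjusted p = 0.0101 by edgeR), and *Lamb2*, *Lamb1* and *Lamc1* were called in total RNA at 0.39, 0.27 and 0.26 (adjusted p = 0.00991, 0.0386 and 0.0576). *Lama5* showed the widest gap between experiments: replicate 4 had 10726 CPM in KM_NTC and 11366 CPM in KM_4A2cr, against 1574 to 2724 CPM in the other 6 libraries. *Col7a1*, the anchoring fibril collagen, was scarce, at 4.57 to 15.7 CPM, with a log2 fold change of -0.03 (SE 0.22). *Col17a1* (3 counts or fewer in any library) and *Nid2* (a single count in total RNA, not listed in the RPF tables) were not tested.

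Levels per length in total RNA put the laminin changes on a common scale. In KM_NTC the mean TPM of the members among the chains ran from *Lamb1* (408 ± 71.9, SD, n = 4) through *Lamb3* (264 ± 93.1), *Lama5* (140.2 ± 78.3), *Lama3* (109.8 ± 77.9) and *Lamc1* (78.2 ± 26.7) to *Lamb2* (20.7 ± 9.64). *Lama5* and *Lama3* lay within each other's spread there. In KM_4A2cr *Lama3* was at 234 ± 77.4 and *Lama5* at 135 ± 59.6 TPM. The ratio of *Lama3* to *Lama5* TPM within a library, which no scaling between libraries can alter, was 0.640 to 0.892 in KM_NTC and 1.47 to 2.74 in KM_4A2cr, with no overlap. That of *Lamb3* to *Lamb1* was 0.502 to 0.783 in KM_NTC and 0.870 to 1.44 in KM_4A2cr, also without overlap. Both ratios were higher in KM_4A2cr in 4 of 4 pairs. These ratios were chosen after the fold changes were seen and were not tested.

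**Figure D3:**
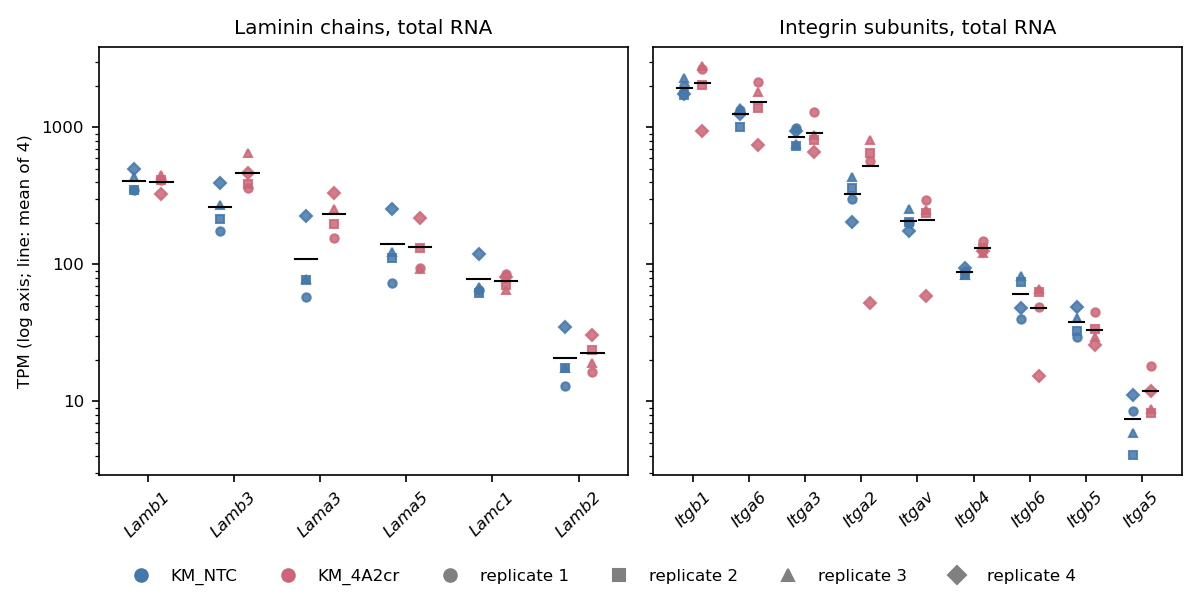
TPM in total RNA on a log axis for 6 laminin chains (left) and 9 integrin subunits (right), with a point per library, symbols by replicate and a bar at the mean of 4. *Itgb1* and *Itga6* are the most abundant integrin subunits and *Itga5* the least. Replicate 4 of KM_4A2cr is the lowest point for every integrin subunit shown except *Itgb4* and *Itga5*.

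Interstitial collagens were close to absent. *Col5a1* was the single gene of the 5 that could be tested, and only in RPFs, at 2.53 to 9.69 CPM, with a log2 fold change of 0.41 (SE 0.24, adjusted p = 0.355 by edgeR). *Col6a1*, *Col12a1* and *Col16a1* summed to 7, 21 and 11 RPF counts over 8 libraries. *Col6a2* had none, which allows a level of up to 0.0511 CPM over the 58711850 counts of these libraries. This limit covers counting error only. The 4 genes other than *Col5a1* had too few counts to be tested for a change between the lines.

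Matrix glycoproteins divided between abundant genes and genes that were nearly silent. *Thbs1*, *Tnc*, *Sparc* and *Spp1* were tested, and *Thbs1* alone was called, downward and only in RPFs. *Thbs1* (ENSMUSG00000040152.9), thrombospondin 1, which binds cells and activates latent TGF-β, had 2769, 2879, 4491 and 5552 CPM in KM_NTC RPFs and 2539, 2008, 2226 and 2269.9 CPM in KM_4A2cr. No KM_4A2cr library reached the lowest KM_NTC library, although pair 1 differed by only -0.12 on the log2 scale and pair 4 by -1.29. It fell by 0.74 (SE 0.19, adjusted p = 0.0679 by edgeR). Its total RNA was lower in 4 of 4 pairs, with a log2 fold change of -0.64 (SE 0.22, adjusted p = 0.154). Without replicate 4 both values were called by edgeR, at -0.55 (adjusted p = 0.0185) and -0.44 (adjusted p = 0.0056). The RPF call was lost without replicate 2 and without replicate 3, where 1.20% and 0.310% of all genes were called. *Thbs1* lies on chromosome 2, where the median of 833 tested genes was -0.21 in RPFs against -0.01 for all genes. The part of that chromosome-wide shift in the value of *Thbs1* was not tested. Of the 9 members on this chromosome 8 were tested in RPFs, and the other 7 were not called.

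*Sparc*, a collagen-binding glycoprotein, had RPFs of 202, 176, 214 and 419 CPM in KM_NTC and 264, 197, 233 and 306 CPM in KM_4A2cr. It was up in pairs 1 to 3 and down in pair 4, with a log2 fold change of 0.06 (SE 0.15, adjusted p = 0.86 by edgeR). *Tnc* (tenascin C) and *Spp1* (osteopontin) had RPF log2 fold changes of 0.32 and 0.29 (adjusted p = 0.287 and 0.463). Without replicate 4 both were called, at 0.50 (adjusted p = 0.00552) and 0.51 (adjusted p = 0.0507), and *Sparc* was called in total RNA, at 0.25 (adjusted p = 0.0737 by edgeR). *Spp1* was the most abundant member per length, at a mean of 2610.1 TPM in KM_NTC and 3046 in KM_4A2cr. *Thbs2*, *Fbln1* and *Fbn1* had at most 6 counts in any library, and *Efemp1* had 0 counts in total RNA.

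Of the 7 collagen-processing genes tested, 1 passed in RPFs and 2 in total RNA, all upward. *P4ha1* (ENSMUSG00000019916.15), the catalytic subunit of prolyl 4-hydroxylase, had RPFs of 377, 204, 378 and 1096 CPM in KM_NTC and 740.4, 349, 581 and 1636 CPM in KM_4A2cr. Each pair was higher in KM_4A2cr, by 0.58 to 0.97, within experiments that themselves differed several-fold. The fitted rise was 0.74 (SE 0.13, adjusted p = 0.0182 by edgeR) in RPFs and 0.63 (SE 0.14, adjusted p = 0.0394) in total RNA. *Plod1* (ENSMUSG00000019055.16), a lysyl hydroxylase, was called in total RNA at 0.56 (SE 0.14, adjusted p = 0.0579 by edgeR) and missed the threshold in RPFs at 0.50 (SE 0.16, adjusted p = 0.111).

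*Serpinh1*, the collagen chaperone HSP47, had RPFs of 259, 227, 353 and 636 CPM in KM_NTC and 431, 298, 488 and 643 CPM in KM_4A2cr. It was higher in 4 of 4 pairs, but by 0.02 in pair 4, and was not called (log2 fold change 0.40, SE 0.14, adjusted p = 0.137 by edgeR). *Plod2*, *Plod3* and *P4ha2*, further hydroxylases, had RPF log2 fold changes of 0.42, 0.31 and 0.22 (adjusted p = 0.101, 0.217 and 0.596). *P4ha2* differed by 0.83, 0.46 and 0.25 in pairs 1 to 3 and by -0.69 in pair 4. The median over the 7 genes was 0.40 in RPFs and 0.39 in total RNA. Without replicate 4, when 33.4% of all tested genes were called in RPFs, all 6 hydroxylases and chaperones were called upward, at 0.43 (*Plod3*) to 0.79 (*P4ha1*). *Loxl2* was then called downward in RPFs, at -0.84 (adjusted p = 0.034 by edgeR).

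*Loxl2*, a lysyl oxidase that acts outside the cell, behaved unlike the other 6. Its RPFs were 9.78, 23.1, 24.9 and 10.7 CPM in KM_NTC and 10.4, 13.3, 6.73 and 40.4 CPM in KM_4A2cr. The pairs had log2 differences of 0.09, -0.79, -1.85 and 1.89, so that pair 4 went the opposite way to pairs 2 and 3, and the fit (-0.21, SE 0.48, adjusted p = 0.83 by edgeR) carried the widest error of all members. Its total RNA, at 68.5 to 214 CPM, varied less (log2 fold change 0.10, SE 0.14). *Lox* had 3 counts in 1 total RNA library and none in the rest.

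**Figure D4:**
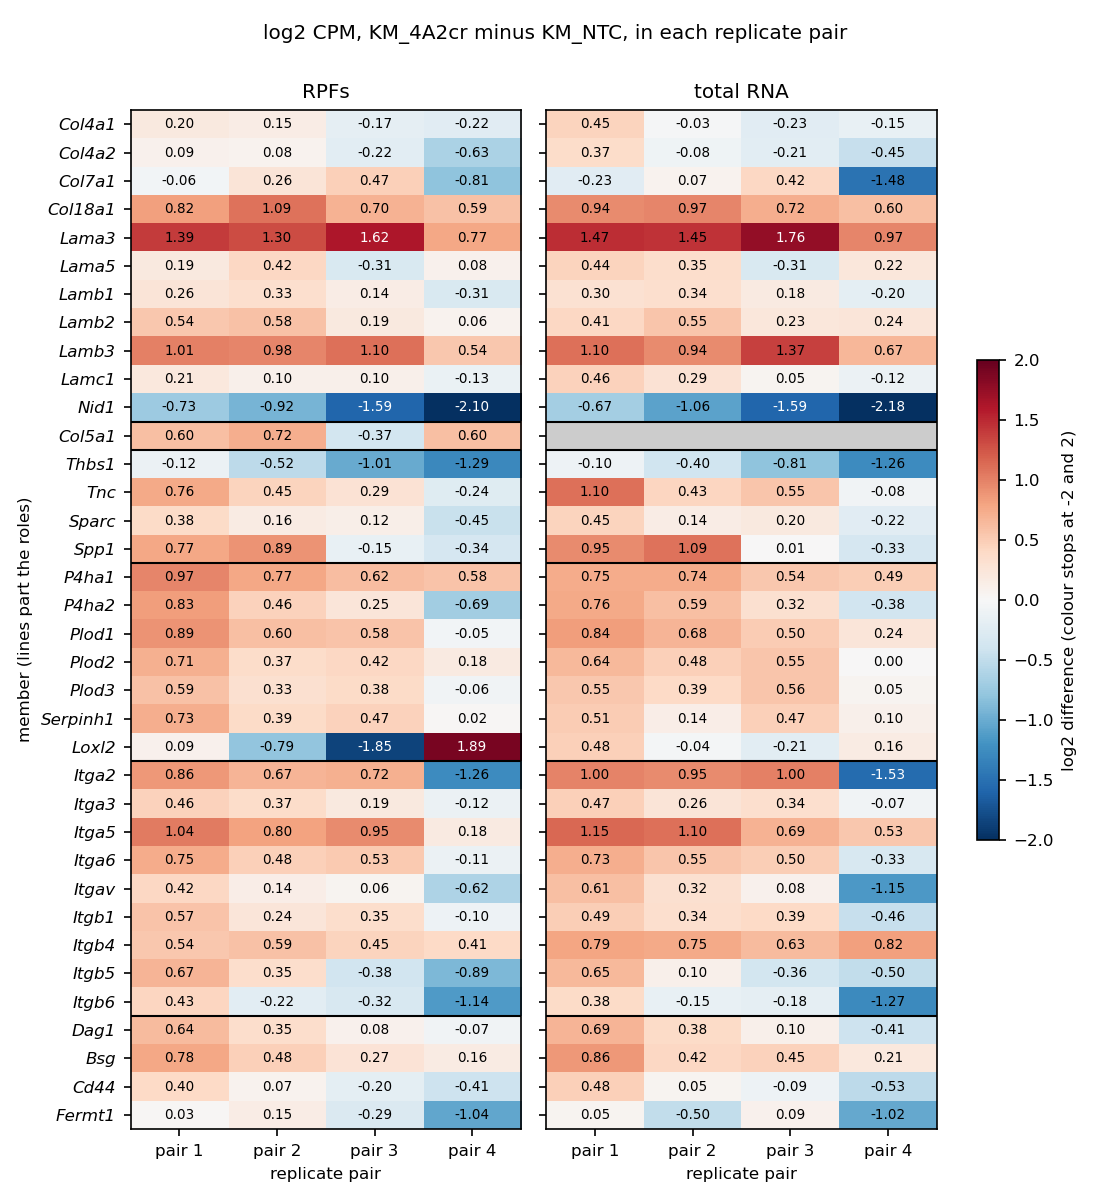
Log2 CPM difference, KM_4A2cr minus KM_NTC, in each replicate pair (columns) for the members tested in RPFs (rows), in RPFs and in total RNA, with red for higher and blue for lower in KM_4A2cr and grey where a gene was not tested. Pair 4 turns blue for *Itga2*, *Itgav*, *Itgb6* and *P4ha2*, where pairs 1 to 3 of *Itga2*, *Itgav* and *P4ha2* are red, while *Lama3*, *Lamb3*, *Col18a1*, *P4ha1* and *Itgb4* stay red throughout.

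Of 11 integrin subunits 9 were tested, and *Itga5* and *Itgb4* rose in both kinds of library. *Itgb4* (ENSMUSG00000020758.16), the β4 subunit, which binds laminin as α6β4 and links it to keratin in hemidesmosomes, had RPFs of 933, 630.0, 1054 and 1519 CPM in KM_NTC and 1357, 946, 1441 and 2011 CPM in KM_4A2cr. The 4 pairs were close together, at 0.41 to 0.59, and the fit gave 0.50 (SE 0.12, adjusted p = 0.0513 by edgeR). In total RNA it was 287, 225, 272 and 372 CPM against 496, 379, 421 and 658 CPM. Those ranges did not overlap, and the rise was 0.75 (SE 0.13, adjusted p = 0.0164 by edgeR).

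*Itga5* (ENSMUSG00000000555.9), the α5 subunit of the fibronectin receptor, had RPFs of 69.0, 33.7, 51.8 and 163 CPM in KM_NTC and 142, 58.9, 100.4 and 184 CPM in KM_4A2cr. It was higher in each pair, by 0.80 to 1.04 in pairs 1 to 3 and by 0.18 in pair 4. The log2 fold change was 0.75 (SE 0.16, adjusted p = 0.0381 by edgeR) in RPFs and 0.88 (SE 0.15, adjusted p = 0.0127) in total RNA. It was also the scarcest of the tested subunits per length, at 7.39 ± 3.09 TPM in KM_NTC and 11.8 ± 4.55 TPM in KM_4A2cr (SD, n = 4).

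The partners of these subunits were far more abundant and were not called. *Itgb1*, which pairs with most α subunits, had RPFs of 6710.2, 5981, 8874 and 11601 CPM in KM_NTC and 9954, 7069.5, 11314 and 10827 CPM in KM_4A2cr (log2 fold change 0.27, SE 0.15, adjusted p = 0.318 by edgeR). *Itga6*, the partner of β4 and also of β1, had 2901, 1606, 2959 and 3898 CPM against 4875, 2242, 4274 and 3608 CPM (log2 fold change 0.41, SE 0.16, adjusted p = 0.164). Both were higher in pairs 1 to 3 and lower in pair 4. *Itga3*, the α subunit of the laminin receptor α3β1, had 4391, 2582, 4280.1 and 6065 CPM against 6036, 3339, 4890.4 and 5589 CPM (log2 fold change 0.23, SE 0.14, adjusted p = 0.373), with the same turn in pair 4. Without replicate 4, when 33.4% of all tested genes were called in RPFs, these 3 subunits were called upward. Their values were 0.39, 0.59 and 0.34 (adjusted p = 0.0401, 0.00292 and 0.0499 by edgeR).

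*Itga2*, the α2 subunit of a collagen receptor, went the opposite way in replicate 4. RPFs were 2162, 2683, 3835 and 2929 CPM in KM_NTC and 3924, 4276, 6310.0 and 1222 CPM in KM_4A2cr. Its pairs were thus 0.86, 0.67, 0.72 and -1.26 in RPFs and 1.00, 0.95, 1.00 and -1.53 in total RNA. Over the 4 pairs the log2 fold change was 0.28 (SE 0.32, adjusted p = 0.644 by edgeR), and without replicate 4 it was 0.75 (SE 0.11, adjusted p = 0.000605). *Itgav* and *Itgb5*, which form αvβ5, had RPF values of 0.00 and -0.05 (SEs 0.17 and 0.24), and *Itgav* was called in total RNA without replicate 4, at 0.33 (adjusted p = 0.0217). *Itgb6*, the epithelial partner of αv, was at -0.31 (SE 0.22, adjusted p = 0.441). *Itga1* and *Itgb8*, with 8 counts or fewer in any library, were not tested.

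Per length in KM_NTC total RNA, the subunits ran from *Itgb1* (1940.2 ± 263 TPM, SD, n = 4), *Itga6* (1255 ± 169) and *Itga3* (852 ± 129.7) through *Itga2* (325 ± 98.1), *Itgav* (209 ± 33.1) and *Itgb4* (87.8 ± 5.46) to *Itgb6* (61.0 ± 20.2), *Itgb5* (37.9 ± 8.58) and *Itga5* (7.39 ± 3.09). *Itgb6* and *Itgb5* were neighbours whose ranges met. *Itga6* TPM were 12.2 to 16.6 times those of *Itgb4* in KM_NTC and 6.01 to 15.1 times in KM_4A2cr, and the ratio was lower in KM_4A2cr in 4 of 4 pairs. The ratio of *Itgb4* to *Itgb1*, the alternative β partners of α6, was higher in KM_4A2cr in 4 of 4 pairs, though its ranges overlapped (0.0366 to 0.0543 in KM_NTC and 0.0431 to 0.132 in KM_4A2cr). These ratios too were chosen after the fold changes were seen.

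None of the 4 other adhesion receptors and partners was called. *Bsg* (basigin, an inducer of matrix metalloproteinases) had RPFs of 1473, 929, 1792 and 3008 CPM in KM_NTC and 2522, 1295, 2156 and 3361 CPM in KM_4A2cr, higher in 4 of 4 pairs (log2 fold change 0.42, SE 0.14, adjusted p = 0.122 by edgeR). *Cd44*, the hyaluronan receptor, had 3895, 3017, 5303 and 5626 CPM against 5156, 3176, 4620.3 and 4225 CPM, with pairs on either side of 0 (log2 fold change -0.03, SE 0.16, adjusted p = 0.92). *Dag1*, which encodes dystroglycan, was at 0.25 and *Fermt1*, the integrin activator kindlin-1, at -0.18 (adjusted p = 0.331 and 0.598). Without replicate 4 *Bsg* and *Dag1* were called upward, at 0.51 (adjusted p = 0.00864) and 0.36 (adjusted p = 0.0382).

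Translational efficiency, the change in RPFs beyond the change in total RNA, was tested as an interaction over all 16 libraries. None of the 35 members with both measures was called, against 2.87% of 9989 genes, and 1 had an unadjusted p under 0.05 by edgeR and none was called by DESeq2. That member was *Itgb4*, at -0.25 (SE 0.09, adjusted p = 0.19 by edgeR), whose total RNA rose by 0.75 and RPFs by 0.50. The other 34 ran from -0.29 (*Loxl2*, SE 0.28) to 0.32 (*Col7a1*, SE 0.32), both scarce in RPFs, and the median was -0.05 against -0.02 for all genes. For *Lama3* the interaction was -0.14 (SE 0.09, adjusted p = 0.514), for *Lamb3* -0.11 (SE 0.09, adjusted p = 0.65) and for *Nid1* 0.04 (SE 0.13, adjusted p = 0.928). Without replicate 4, *Loxl2* was called at -0.90 (adjusted p = 0.00183) and *Itga2* at -0.22 (adjusted p = 0.0955), against 6.98% of genes.

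The ratio of RPFs to total RNA was above that of the median gene for most members. This ratio of CPM compares reads over the coding sequence with reads over the whole mRNA, so that a gene's untranslated length enters it. Its log2 mean over the 8 lysates lay above the median of all genes (-0.24) for 33 of 35 members. The highest values were those of *Col18a1* (2.23, percentile 98.8 of 9989 genes), *Lamb2* (2.11, percentile 98.4) and *P4ha2* (2.09, percentile 98.4). *Lama5*, *Plod1*, *Lamb1* and *Col4a2* followed at 1.73 to 1.83. At the low end *Itga6*, *Itgb5* and *Dag1* were at -0.08, -0.09 and -0.12, and *Fermt1* was at -0.71. *Loxl2* was alone far below, at -2.86 (percentile 2.95), and its lysates ran from -4.10 to -1.58.

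**Figure D5:**
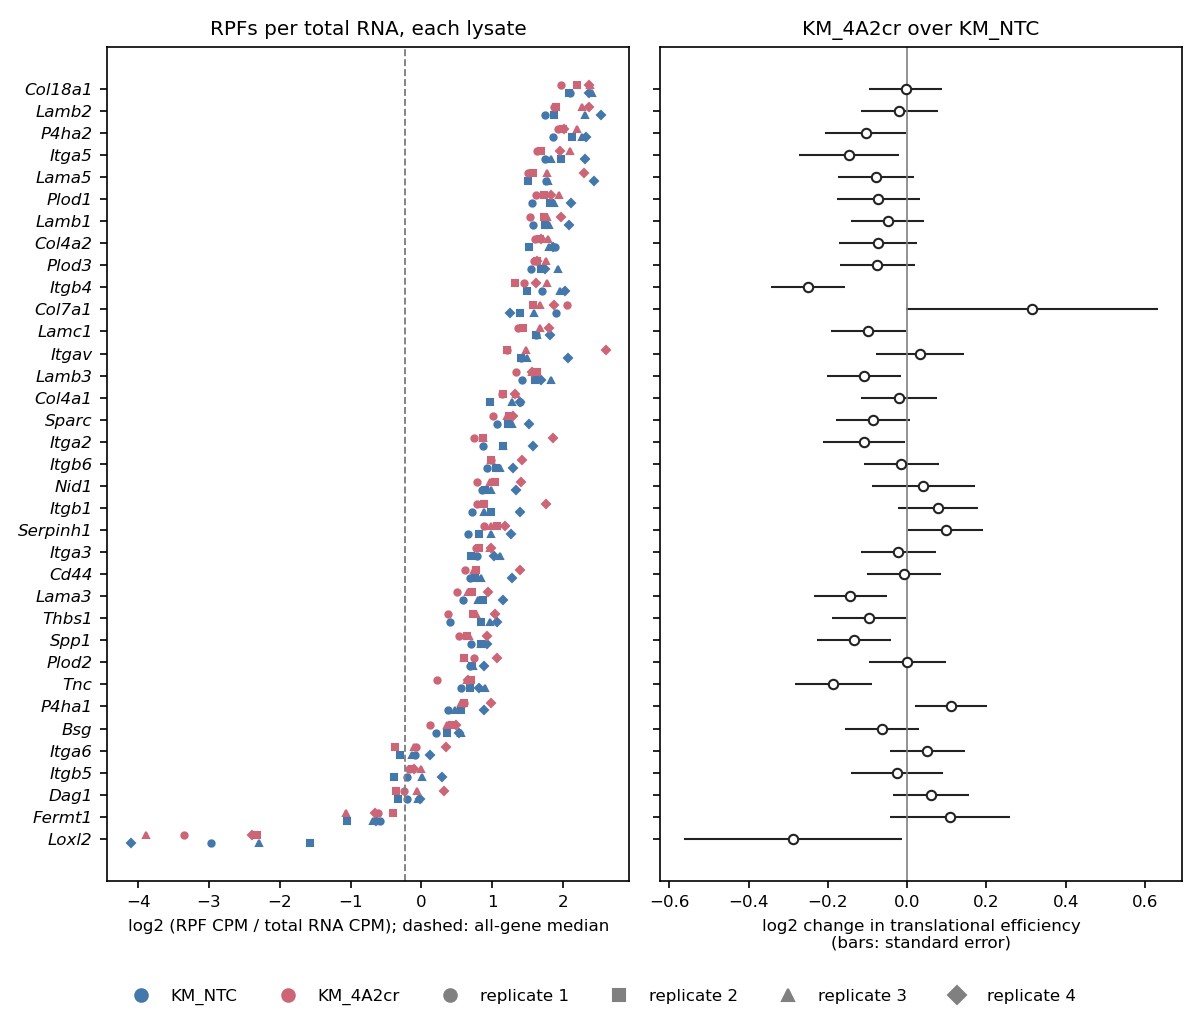
Left, log2 ratio of RPF CPM to total RNA CPM in each of the 8 lysates for 35 members, with a dashed line at the median of all genes. Right, the fitted change of translational efficiency with its standard error, open where the adjusted p was not under 0.1. *Loxl2* lies apart at the left of the first panel, and the values of the second lie between -0.29 and 0.32.

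A wider list of matrix, collagen-processing and adhesion genes was described beside the members. Of 43 further matrix components 17 were tested, and 3 rose and none fell in RPFs. They were *Col13a1* (2.38, SE 0.26, adjusted p = 0.00351 by edgeR), a transmembrane collagen, *Tinagl1* (0.65, SE 0.12, adjusted p = 0.0203) and *Agrn* (0.49, SE 0.12, adjusted p = 0.0619), agrin. *Col13a1* RPFs were 7.33, 5.76, 11.2 and 43.4 CPM in KM_NTC and 34.3, 52.2, 79.0 and 117 CPM in KM_4A2cr. In total RNA 3 of 17 rose as well, against 4.35% of all tested genes. Of 26 further collagen-processing genes 17 were tested in RPFs, and 4 rose and none fell, with *Tmem38b* (1.04, SE 0.14, adjusted p = 0.00846), an ion channel of the endoplasmic reticulum, *Mia2* (0.65, adjusted p = 0.0815), which loads large cargo such as collagen, and *P3h2* (0.57, adjusted p = 0.0844), a prolyl 3-hydroxylase, at the smallest p. In total RNA none of 18 was called by edgeR, against 6.13% of all tested genes, and 5 had an unadjusted p under 0.05. *P4hb*, the partner of *P4ha1* in prolyl 4-hydroxylase, was at the edge of the threshold in RPFs (0.48, SE 0.15, adjusted p = 0.09997).

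Of 45 further integrins and adaptors 33 were tested in RPFs, 3 rose and 1 fell. *Itgb7*, an integrin β subunit, rose by 0.66 (adjusted p = 0.0425), *Cd151*, a tetraspanin bound to laminin-binding integrins, by 0.48 (adjusted p = 0.0704) and *Sdc1*, syndecan 1, by 0.46 (adjusted p = 0.0769 by edgeR). *Kank1* was the gene that fell (-0.63, SE 0.19, adjusted p = 0.0941). In total RNA 5 of 34 rose, against 4.35% of all tested genes. *Plec*, plectin, which ties β4 to keratin, was among them (0.73, SE 0.13, adjusted p = 0.0141), and its RPFs did not pass (0.28, SE 0.18, adjusted p = 0.383). The shares called in these 3 lists, 3 of 17, 4 of 17 and 4 of 33 in RPFs, stand beside 10.3% over all genes. As the lists were chosen with earlier results of these data known, the shares were not tested. In translational efficiency, *Tmem38b* rose by 0.77 (SE 0.13, adjusted p = 0.0048 by edgeR), and *Plec* fell by 0.42 (SE 0.11, adjusted p = 0.0686) and *Ecm1* by 0.36 (SE 0.10, adjusted p = 0.066). Each was the only call in its list, 1 of 17, 1 of 33 and 1 of 17 tested genes, against 2.87% of all genes.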

How the data were processed

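RPFs and cytoplasmic total RNA were sequenced from 4 KM_NTC and 4 KM_4A2cr lysates. The authors deposited RPF counts per transcript, summed over the coding sequence of the most abundant transcript of each gene after Cutadapt 1.18, UMI-tools 1.0.1, BBmap and SAMtools 1.9 (submitters' processing notes and methods), and RSEM 1.3.3 expected counts and TPM per isoform for total RNA, aligned with Bowtie2 2.3.5.1 to GENCODE vM27. Isoform values were summed per gene and rounded, and a transcript missing from an RPF table was taken as 0. Sequences come from RefSeq (GRCm38.p6), another annotation than that of the files, and no coordinates were taken across. Chromosome numbers come from RefSeq too.

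Genes were filtered with filterByExpr, scaled by TMM and tested with the quasi-likelihood test of edgeR 4.0.16 (R 4.3.3), with replicate and cell line as terms, Benjamini-Hochberg adjustment over all tested genes and a threshold of 0.1. Log2 CPM used a prior count of 2. Translational efficiency was the interaction term of 1 model over 16 libraries. Log2 ratios of RPF to total RNA CPM used a pseudocount of 0.5. RPFs and total RNA were scaled apart, so a change shared by all genes leaves no trace. The depth per library (4512403 to 9621848 counts) covers counting error only. The test was tried on simulated counts with 200 changed genes. Same-numbered libraries deviated together from their line means (r = 0.575 to 0.782 across genes, all 8 over 0.1), so the replicate numbers pair them. All members are accounted for. Members called in RPFs with 1 direction in 4 pairs, or called in translational efficiency, were named with every value, as were 12 matrix, chaperone and receptor genes regardless of result, and in each wider list the 3 called genes with the smallest p. *P4hb*, *Plec*, *Ecm1* and *Kank1* were added after their values were seen. Some items, among the wider genes and in the genotype, are not reported here. The members and lists were chosen with earlier results of these data known. Alternatives were no replicate block, DESeq2 1.42.0, upper-quartile or library-size scaling, no filter, a minimum mean of 50 counts, an adjusted p under 0.05, dropping each replicate in turn, members off chromosome 2, and the RPF isoform only.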

Additional observations from a re-analysis of the deposited data

Results flagged for a closer look

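In 11 of 142 groups of 4 libraries, CPM of 1 library lay far from the other 3, with a gap past Dixon's critical value for 4, which chance meets in about 1 of 20 groups, or 7.1 of 142. Replicate 4 was the high library in all 11, over 7 genes. In RPFs of KM_NTC these were *Lama3* (2469 CPM, others 345 to 563), *Lama5* (10726, others 1574 to 2724), *Lamc1* (2147, others 679 to 900.1) and *Sparc* (419, others 176 to 214). In RPFs of KM_4A2cr they were *Lama5* (11366 CPM, others 1797 to 2285) and *Col5a1* (9.69, others 3.99 to 4.43). In total RNA of KM_NTC they were *Lama3* (1113 CPM, others 231 to 323), *Lamb2* (132, others 40.0 to 55.0) and *Col7a1* (6.32, others 1.44 to 1.96). In total RNA of KM_4A2cr they were *Lama5* (2307 CPM, others 631 to 766) and *Lamb2* (156, others 53.1 to 66.9). RPFs and total RNA of a replicate share a lysate, so flags of 1 gene in both are not independent. What set replicate 4 apart was not tested.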

How the results depend on the processing

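Without the replicate block 0 members were called in RPFs and 0 in total RNA, against 8 and 8, and leaving out a replicate gave 0 to 23 in RPFs, 1 to 26 in total RNA and 0 to 2 in translational efficiency, lowest without replicate 3 in RPFs and total RNA and highest without replicate 4 in all 3. By edgeR without the block, 2 members in RPFs, 5 in total RNA and 0 in translational efficiency had an unadjusted p under 0.05. Other settings gave 6 to 11 in RPFs, 7 to 10 in total RNA and 0 in translational efficiency. The 8 RPF calls held under DESeq2, both other scalings and both other filters, and so did those in total RNA, except that *Plod1* was lost with library size only. That scaling shifted the median of all tested genes by -0.14 (RPFs) and -0.16 (total RNA) on the log2 scale and turned their calls from 679 up and 383 down to 482 up and 1137 down in RPFs, and from 473 and 194 to 262 and 868 in total RNA. Upper-quartile scaling gave 534 up and 464 down in RPFs and 325 and 216 in total RNA, no filter 794 and 474 in total RNA, and DESeq2 53 and 15 in translational efficiency, against 187 and 100. Without the replicate block no gene was called by edgeR in any of the 3 tests. Of 459 member values under settings that keep all libraries, 18 changed sign, none of a called member. In RPFs these were, with library size only, *Lama5* (-0.032), *Lamb1* (-0.023), *Lamc1* (-0.058), *Sparc* (-0.074) and *Itgav* (-0.13), with upper-quartile scaling *Itgav* (-0.039), with no filter *Itgav* (-0.0081), and without the replicate block *Sparc* (-0.016), *Loxl2* (0.017) and *Itgav* (-0.031). In total RNA they were, with library size only, *Col4a1* (-0.15), *Lamb1* (-0.00025), *Sparc* (-0.014) and *Loxl2* (-0.061), with upper-quartile scaling *Col4a1* (-0.030), with no filter *Col4a1* (-0.010), and without the replicate block *Itgav* (0.076) and *Cd44* (0.018). Over the replicates left out, the sign changed in RPFs for *Col4a1* (-0.081 to 0.074), *Col7a1* (-0.16 to 0.21), *Lama5* (-0.0079 to 0.26), *Sparc* (-0.057 to 0.22), *Loxl2* (-0.84 to 0.36), *Itgav* (-0.14 to 0.21), *Itgb5* (-0.31 to 0.22) and *Cd44* (-0.18 to 0.094), and in total RNA for *Col4a1* (-0.14 to 0.091), *Col4a2* (-0.25 to 0.021), *Col7a1* (-0.64 to 0.084), *Loxl2* (-0.029 to 0.20), *Itgav* (-0.24 to 0.33), *Itgb5* (-0.26 to 0.12) and *Cd44* (-0.19 to 0.14). The cause of these moves was not tested. The 13 members not tested in RPFs and the 14 not tested in total RNA had too few counts to be tested for a change.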
